A study of Mus musculus with 2 samples.

Results

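The expression of 9 genes of B cells and plasma cells was followed in monocytes sorted from mouse spleen after kidney surgery. The genes were Cd79a, Cd79b, Ms4a1, Pax5, Bank1, Jchain (written Igj in older lists), Sdc1, Prdm1 and Tnfrsf17. They were chosen by symbol, and all 9 had a probe, out of 24813 named genes with a probe on the array. The monocytes came from ICR mice, an outbred stock, at 8 weeks after a 5/6 nephrectomy (5/6Nx) or a sham operation, and there was 1 array per group. A 5/6 nephrectomy removes most kidney tissue and serves as a model of chronic kidney disease. Per the labels, the sorter selected spleen cells by their staining for CD11b and Ly6C, and how many mice went into each RNA was not stated. The question for these 9 genes is how strongly transcripts of the antibody-making lineage are seen in each sorted preparation.

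B cells recognise antigen through a surface antibody that signals by way of the CD79A and CD79B chains, and the transcription factor PAX5 keeps them in the B cell state. On activation some B cells become plasma cells. These lose PAX5, switch on PRDM1, carry syndecan-1 and BCMA on their surface, and secrete antibody, which the joining chain links into polymers. The spleen holds both cell types, whereas monocytes make no antibody.

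All values are Agilent processed intensities as log2 relative to the 75th percentile of the array's non-control spots. This percentile was an intensity of 547.5 on the 5/6Nx array and 442.1 on the sham array. Differences are 5/6Nx minus sham, and a positive one means a higher signal on the 5/6Nx array. Of 59305 non-control spots, 39735 (67.0%) on the 5/6Nx array and 37333 (63.0%) on the sham array were called well above background by the scanner software. With 1 array per group there was no replicate error and no test, so a difference of at least 2-fold serves only as a rule of size. The error given with a difference (±) is the scanner software's own estimate for single spots and leaves out labelling, sorting and the animals. All 9 markers of monocytes and macrophages were measured on both arrays, with summed signals of 1721 and 1375 times the 75th percentile on the 5/6Nx and sham arrays. These sums include Ly6c1 and Ly6c2, each 3.95-fold higher on the 5/6Nx array, while the median difference of the 9 was -0.26.

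The 9 genes were read by 14 probes of 60 bases, each printed as 1 spot. Of the genes, 5 had 1 probe, 3 had 2 probes, and Sdc1 had 3. Of the 14 probes, 9 were well above background on both arrays, 3 with 5/6Nx RNA alone and 2 on neither. Probe sequences are shown for the genes where the choice or position of the probe bears on the value. They are printed 5′ to 3′ in lower case with no part singled out. The first 4 are whole probes, and the last 3 are the first 30 bases of their probe.
Cd79a: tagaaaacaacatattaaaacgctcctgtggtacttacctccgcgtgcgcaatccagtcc
Pax5: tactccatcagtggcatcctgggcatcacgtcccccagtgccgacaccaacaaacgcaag
Prdm1: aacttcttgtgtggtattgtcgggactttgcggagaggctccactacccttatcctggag
Sdc1: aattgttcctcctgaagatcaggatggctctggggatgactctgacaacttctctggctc
Ms4a1 (RefSeq mRNA): cagaaatgtaatgggttcccagatctcaaa
Ms4a1 (Ensembl transcript): ccgctatgcctggagaggatggggaggtgg
Jchain: ctgtactagtctttctcttaacctctcact

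On the mouse build mm9, as the files give positions, the Cd79a probe covers chr7:25684357-25684614 on the plus strand. This span of 258 bases is longer than the 60-base probe, so the probe is not contiguous on the genome. The Pax5 probe shown lies at chr4:44692322-44692381 on the minus strand and the Prdm1 probe at chr10:44166619-44166678 on the minus strand. The Sdc1 probe shown lies at chr12:8796227-8796286 on the plus strand, 3048 bases before the start of the next Sdc1 probe. The Ms4a1 probes lie at chr19:11325409-11325468 for the RefSeq mRNA and chr19:11324334-11324393 for the Ensembl transcript, and their starts are 1075 bases apart. The Jchain probe lies at chr5:88949919-88949978 on the minus strand. Exon and UTR annotation on mm9 was not used here.

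Most of the 9 genes read higher on the 5/6Nx array, and the difference ran from near 0 for Pax5 to a bound of 1857-fold for Jchain. At least 2-fold higher were Cd79b, Bank1 and Prdm1 by value and Jchain and Tnfrsf17 by a lower bound, so 5 of 9 (55.6%). Among all named genes above background on at least 1 array the same share was 14.1%. Sdc1 was the single gene at least 2-fold lower (11.1% of 9 genes, against 10.6% of the named genes above background on at least 1 array). Both arrays gave a value for 6 of the genes, and 3 of these passed 2-fold upward, where 12.3% of 15715 named genes did. Their median difference was 0.93, against -0.12 for all named genes. The 3 genes not well above background on the sham array can enter only as higher, so their direction is set by that filter. Such genes made up 8.99% of the named genes above background on at least 1 array.

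**Figure D1:**
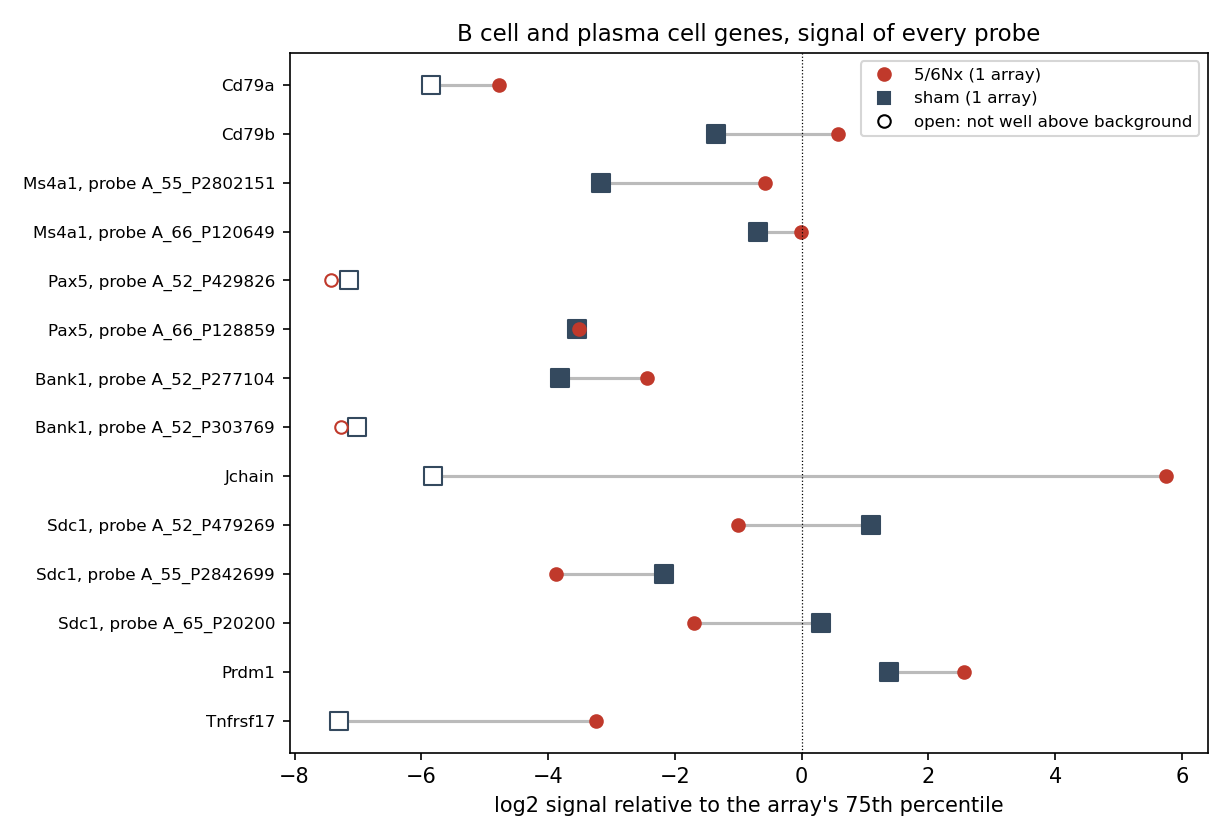
Log2 signal relative to the array's 75th percentile (x axis) for each of the 14 probes (y axis), with circles for the 5/6Nx array, squares for the sham array and open symbols where the probe was not well above background. Jchain has the widest gap (5.75 on the 5/6Nx array and -5.81 on the sham array), and the 3 Sdc1 probes are the ones that lie lower on the 5/6Nx array among probes above background on both.

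The antigen receptor chains of B cells came first. Cd79b, which encodes the Ig-beta chain, had an intensity of 814.4 on the 5/6Nx array and 173.8 on the sham array. The log2 values were 0.57 and -1.35, a difference of 1.92 ± 0.21, or 3.78-fold. This is larger than the software's spot error, and 95.2% of the measured named genes had a smaller or more negative difference. Cd79a, which encodes the partner chain Ig-alpha, stood near background, at an intensity of 19.9 on the 5/6Nx array and 7.68 on the sham array. It cleared background with 5/6Nx RNA alone, and was at least 1.26-fold higher there. The bound is this small because the lowest signal called well above background on the sham array was 12.8, so a 2-fold difference of Cd79a was not detectable at this signal. With a looser filter on dim probes, which takes both readings as measured, the difference was 1.07.

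Ms4a1 encodes CD20, a surface protein of B cells. Its probes differed in size. The probe for the RefSeq mRNA read 367.0 on the 5/6Nx array and 49.3 on the sham array, a difference of 2.59 ± 0.22, or 6.01-fold. The sham reading is dim, and with normexp this probe read 418.9 on the 5/6Nx array and 110.3 on the sham array, before scaling. The probe for the Ensembl transcript, the brighter of the pair, read 542.3 on the 5/6Nx array and 273.5 on the sham array, a difference of 0.68 ± 0.20, or 1.60-fold. Both probes were higher on the 5/6Nx array, and whether Ms4a1 passes 2-fold depends on which one represents it. By the brightest measured probe, the rule used throughout, it did not pass.

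Bank1 encodes an adaptor of B cell receptor signalling. Its RefSeq probe (chr3:135716867-135716926, mm9) read 100.8 on the 5/6Nx array and 31.3 on the sham array, a difference of 1.38 ± 0.25, or 2.60-fold. Both readings are dim, and with a different background correction (normexp) the difference was 0.55. The other Bank1 probe, 157222 bases away and listed under an Ensembl transcript, was above background on neither array, at 3.54 and 3.43 on the 5/6Nx and sham arrays.

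Pax5, the transcription factor of B cell identity, differed by less than the spot error between the arrays. The probe shown had an intensity of 47.8 on the 5/6Nx array and 37.7 on the sham array, a difference of 0.03 ± 0.25. Its other probe, 154386 bases away, was above background on neither array, at 3.20 and 3.13. The sign of the Pax5 difference changed with the processing, from -0.18 with normexp to 0.40 with scaling on spike-in controls.

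Among the plasma cell genes, Jchain had the largest difference. It encodes the joining chain of polymeric IgA and IgM. Its intensity was 29381 on the 5/6Nx array and 7.89 on the sham array, where it was not well above background. The log2 values were 5.75 and -5.81, and Jchain was at least 1857-fold higher after 5/6Nx. With normexp the bound was 8.47 on the log2 scale, against 10.86 as reported.

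Tnfrsf17 encodes BCMA, a receptor for the survival factors BAFF and APRIL on plasma cells. Its probe (chr16:11320045-11320104, mm9) read 57.5 on the 5/6Nx array and 2.82 on the sham array, where it was not well above background. Tnfrsf17 was at least 3.63-fold higher after 5/6Nx. With normexp the bound was 0.52 on the log2 scale, under 2-fold.

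Prdm1 encodes Blimp-1, the repressor that drives plasma cell differentiation and that T cells and macrophages also make. It was bright on both arrays, at an intensity of 3217 on the 5/6Nx array and 1145 on the sham array. The difference was 1.18 ± 0.20, or 2.27-fold, and 90.6% of the measured named genes had a smaller or more negative one.

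Sdc1 encodes syndecan-1 (CD138), a surface proteoglycan of plasma cells that epithelial cells and some macrophages also carry. It went the other way on all 3 probes. The brightest probe (chr12:8799383-8799442, mm9) read 271.6 on the 5/6Nx array and 941.3 on the sham array, a difference of -2.10 ± 0.20, and the ratio was 0.23. The second probe, 108 bases before it, read 169.5 and 544.3 on the 5/6Nx and sham arrays and differed by -1.99. The probe shown, the dimmest, read 37.2 and 98.0 and differed by -1.71. All 3 were thus more than 2-fold lower on the 5/6Nx array. Only 2.41% of the measured named genes had a more negative difference than the brightest Sdc1 probe. Sdc1 ran opposite to Jchain, Tnfrsf17 and Prdm1.

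**Figure D2:**
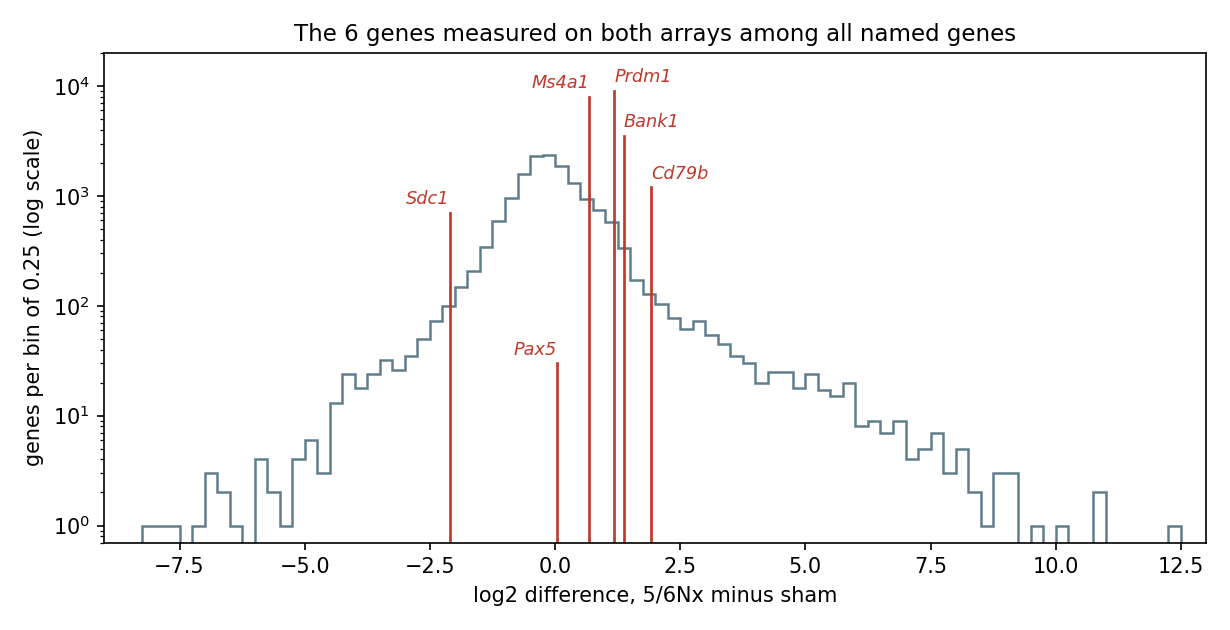
Number of named genes (y axis, log scale) per bin of 0.25 in the log2 difference, 5/6Nx minus sham (x axis), over 15715 named genes with a value on both arrays, with lines at the 6 B cell and plasma cell genes among them (line heights carry no value). Cd79b, Bank1 and Prdm1 lie on the upper shoulder at 1.92, 1.38 and 1.18, Pax5 lies at 0.03 near the centre, and Sdc1 lies at -2.10 on the lower side.

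Of the 12 alternative ways of processing the arrays, 7 changed the values of Cd79b, Prdm1 and Bank1 and 9 that of Sdc1. The rest concern the choice or filter of probes and return the same value where a gene has 1 measured probe or keeps its brightest one. Cd79b, Prdm1 and Sdc1 stayed at least 2-fold apart in the same direction under each alternative that changed them. Their differences ranged from 1.60 to 2.28 for Cd79b, from 1.03 to 1.55 for Prdm1 and from -2.25 to -1.74 for Sdc1. Bank1 passed 2-fold in 6 of the 7, all but normexp. Ms4a1 passed in 4 of 12, with values from 0.53 to 2.59.

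**Figure D3:**
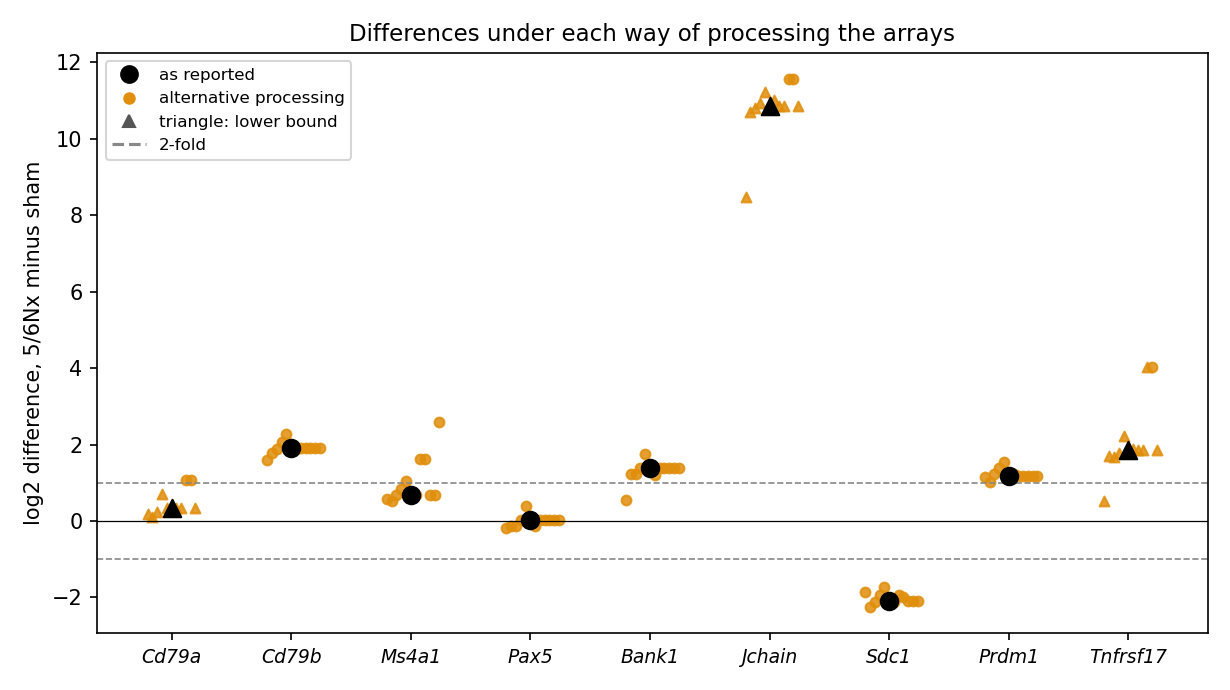
Log2 difference, 5/6Nx minus sham (y axis), of each gene (x axis) as reported (black) and under the alternative ways of processing (orange), with triangles for lower bounds and dashed lines at 2-fold. Cd79b, Prdm1, Jchain and Sdc1 stay outside the dashed lines, Pax5 stays between them, and Ms4a1, Bank1, Cd79a and Tnfrsf17 have values on both sides of the upper line.

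Partner genes of B cells were read from a list of 48 surface, signalling and transcription genes, of which 38 were measured on both arrays. Of these 38, 16 were at least 2-fold higher and 2 were lower, with a median of 0.91. Over all measured named genes 12.3% were higher and 10.9% lower. A further 8 cleared background with 5/6Nx RNA alone, and 7 of those had a bound of at least 2-fold. Genes of this kind can enter only as higher, so their direction is set by the filter. They made up 8.99% of the named genes above background on at least 1 array. The largest measured differences came from a few of the 38 genes measured on both arrays. Cd40, a costimulatory receptor, read 3179 on the 5/6Nx array and 43.8 on the sham array, a difference of 5.87. Cd72, a co-receptor of B cells also found on macrophages, read 7360 and 184.5, a difference of 5.01. Both were bright on the 5/6Nx array and dim on the sham array. Ciita, the master regulator of MHC class II genes, read 2529 on the 5/6Nx array and 89.4 on the sham array, a difference of 4.51. The class II invariant chain Cd74 read 47162 and 1807, a difference of 4.40. Antigen presentation genes of this kind are also used by macrophages and dendritic cells. The transcription factor Ets1 read 1688 on the 5/6Nx array and 79.1 on the sham array and differed by 4.11. Lower were Cd81, a tetraspanin, at -2.46, and Cd24a at -1.16, both named after their values were seen.

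Of the 13 partner genes that are mainly of the B lineage, a subset marked after the values were known, 6 were measured on both arrays, with a median of 0.85 and a range from 0.13 to 1.36, and 1 of the 6 passed 2-fold upward, where 12.3% of all measured named genes did. That gene was Ebf1, a transcription factor upstream of Pax5, at 1.36. The complement receptor Cr2 differed by 0.86, the IgE receptor Fcer2a by 0.95 and the inhibitory lectin Cd22 by 0.13, each by its brightest probe. The measured probes ran from 0.45 to 0.86 for Cr2, from 0.23 to 0.95 for Fcer2a and from -0.39 to 0.13 for Cd22. Another 6 genes of this subset cleared background with 5/6Nx RNA alone, and 5 of their bounds reached 2-fold. The direction of these 6 is set by the filter. Over all named genes above background on at least 1 array, 8.99% cleared it on the 5/6Nx array only. The largest bounds of the partner list were those of Pou2af1, the co-activator of octamer factors, at least 313-fold higher, Vpreb3, at least 15.5-fold, and Cxcr5, the chemokine receptor of B cell follicles, at least 15.1-fold.

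Partner genes of plasma cells split by role. Of 17 genes listed for the secretory programme, 14 were measured on both arrays, with a median of -0.07. Xbp1, the transcription factor of the secretory programme, differed by 0.30, and the chaperones Hspa5 and Hsp90b1 by 0.27 and 0.11. Secretory cells of all kinds use these genes, and the probes of these 3 were bright on both arrays. The measured Hspa5 probes ran from -0.28 to 0.27. Over all measured named genes 12.3% were at least 2-fold higher and 10.9% lower. Of the 14, 4 were higher, Herpud1 at 1.52, Eaf2 at 1.43, Ell2 at 1.37 and Creld2 at 1.15, and none was 2-fold lower. Of these, Ell2 and Eaf2 are transcription elongation factors, not parts of the secretory machinery. The Ell2 probes ran from 0.49 to 1.37. Mzb1 and Derl3, listed for the secretory programme and made at high level by plasma cells, cleared background with 5/6Nx RNA alone. Mzb1 read 2770 on the 5/6Nx array and 6.43 on the sham array and was at least 175-fold higher. Derl3 read 1988 and 10.9 and was at least 126-fold higher. Among the other plasma cell partners the ecto-enzyme Cd38 read 5219 on the 5/6Nx array and 34.7 on the sham array, a difference of 6.92. The receptor Slamf7 read 3165 and 64.8, a difference of 5.30, and the transcription factor Irf4 read 847 and 32.1, a difference of 4.41. Cd28 differed by 3.01 and the integrin subunit Itga4 by 2.55. T cells, NK cells or macrophages also make these. Lower were Cd93, a surface glycoprotein also carried by myeloid cells, at 3242 on the 5/6Nx array and 30987 on the sham array, a difference of -3.57, and the chemokine receptor Cxcr4 at -2.54. Over the whole list of 31 genes, 25 were measured on both arrays. Of these 25, 10 were at least 2-fold higher and 2 lower, against 12.3% and 10.9% of all measured named genes. The median was 0.11. This median took the other sign with median scaling (-0.04) and with the median over probes (-0.07). In 5 more genes a bound was all that could be given, since the sham array did not show them above background. Such genes made up 8.99% of the named genes above background on at least 1 array.

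Antibody transcripts themselves were on the array as 14 probes of 12 immunoglobulin and surrogate light chain genes. Of these probes, 6 were measured on both arrays, 4 with 5/6Nx RNA alone and 4 on neither. Ighg3, the one heavy chain constant region of the list with a probe under its own name, read 24289 on the 5/6Nx array and 108.1 on the sham array, a difference of 7.50. The heavy chain variable segment listed as Ighv1-33 read 3335 and 50.8, a difference of 5.73, and Igkv4-72 read 361.1 and 81.3, a difference of 1.84. The lambda segment Iglv1 was at least 152-fold higher after 5/6Nx and the kappa segment Igkv14-126 at least 27.0-fold. The surrogate light chain genes of early B cells, Vpreb1 and Vpreb2, differed by -0.94 and 0.32. Some immunoglobulin segments are close in sequence and may vary between mice of an outbred stock, so a probe may read several of them, which was not tested. Of the 3 probes named Igh-VJ558, one differed by -0.42, at dim readings of 15.1 on the 5/6Nx array and 16.4 on the sham array, and another had a bound of 114-fold.

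Of the other BAFF system genes, besides Tnfrsf17, 3 were measured on both arrays, and none of these differed by 2-fold. Over all measured named genes 12.3% were at least 2-fold higher and 10.9% lower. The ligand APRIL, Tnfsf13, had no probe under its name. The ligand BAFF, Tnfsf13b, differed by 0.59 and the receptors TACI, Tnfrsf13b, and BAFF-R, Tnfrsf13c, by -0.10 and -0.38. Tnfsf13b was dim, its 3 probes ran from 0.59 to 1.26, and the TACI probes ran from -0.10 to 0.84. Tnfrsf13c was dimmer still, at 20.6 on the 5/6Nx array and 21.7 on the sham array, and 1 of its 2 probes was measured. Il6, a cytokine that supports plasma cells and is made by many cells, was at least 394-fold higher after 5/6Nx, at 6227 against 2.77. It was 1 of 6 other survival genes in the list. Of these, 4 were above background on neither array, and Il21, dim on the 5/6Nx array, had a bound of 1.60-fold.

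**Figure D4:**
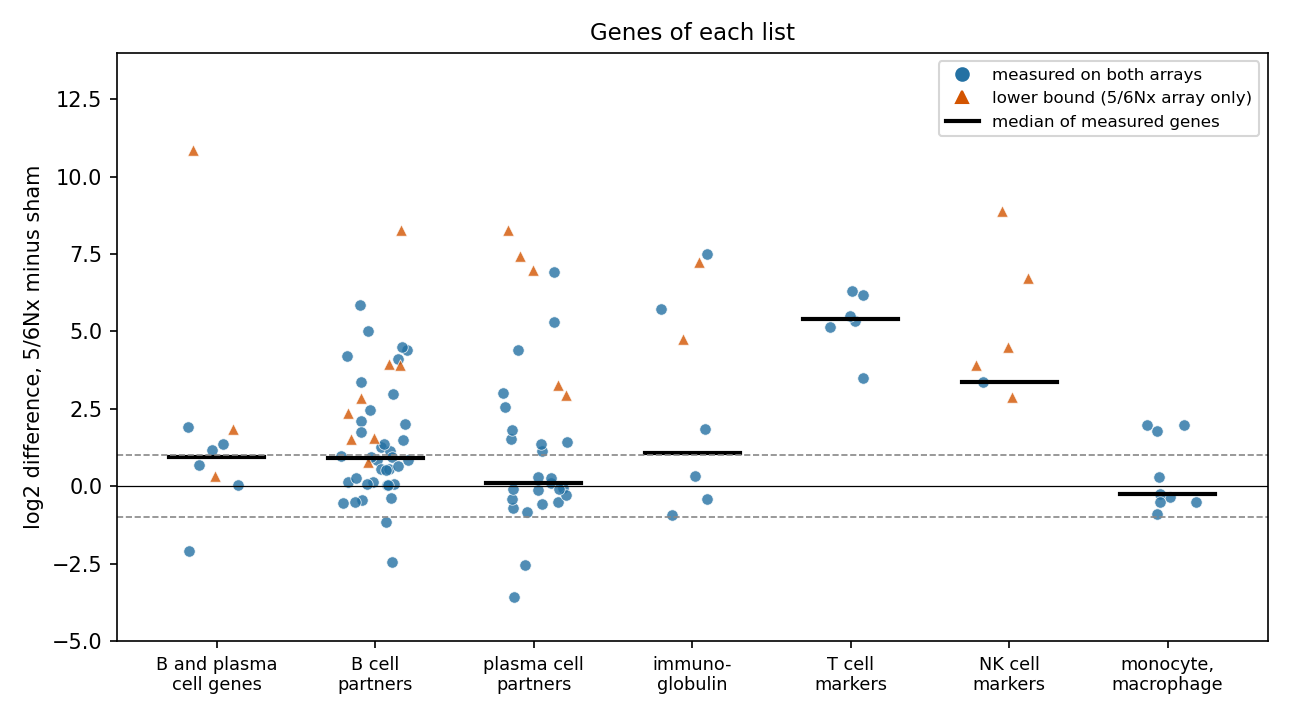
Log2 difference, 5/6Nx minus sham (y axis), of the genes of each list (x axis), with circles for genes measured on both arrays, triangles for lower bounds where the sham array did not clear background, and a bar at the median of the measured genes. The medians are 0.93 for the 6 measured of the 9 B and plasma cell genes, 0.91 and 0.11 for their partner lists, 5.42 for T cell markers and -0.26 for monocyte and macrophage markers, and horizontal jitter carries no meaning.

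Markers of other lymphocytes were higher on the same array. All 6 T cell markers were at least 2-fold higher, with a range from 3.51 to 6.31 and summed signals of 51.8 and 1.64 times the 75th percentile on the 5/6Nx and sham arrays. All 6 NK cell markers were higher, with summed signals of 20.9 on the 5/6Nx array and 0.37 on the sham array. For 5 of them this was a bound, and their direction was set by the filter, since the sham array did not show them above background. Such genes made up 8.99% of the named genes above background on at least 1 array. The NK cell marker measured on both arrays, Tbx21, differed by 3.36. At least 2-fold higher were also 2 of 6 markers of conventional dendritic cells and 2 of 5 of plasmacytoid dendritic cells. The same held for 2 of 5 neutrophil markers and 1 of 4 erythroid markers. None of the markers in these lists was 2-fold lower. Of the named genes above background on at least 1 array, 14.1% were higher. The marker counts also hold genes above background on neither array, 1 each for conventional dendritic cells and neutrophils. The summed signals of these lists were 3.49 on the 5/6Nx array and 0.996 on the sham array for conventional dendritic cells, 297 and 253 for plasmacytoid dendritic cells, 9.90 and 10.2 for neutrophils, and 3.30 and 0.53 for erythroid cells. The other 3 erythroid markers were above background on neither array. Of the plasmacytoid markers, the bright Siglech differed by -0.20 and Bst2 by 5.70. The part of these cell types in the values of the B cell and plasma cell genes was not tested. Monocyte and macrophage markers had a median of -0.26, with 3 of 9 at least 2-fold higher and none lower. The 3 were Ly6c1 and Ly6c2, which encode the Ly6C antigen stained for the sort, at 3.95-fold each, and the macrophage gene Adgre1 at 3.41-fold. Itgam, which encodes CD11b, differed by -0.35. The part of a difference in the sort in the other values was not tested. In RNA of a sorted population, more cells of a type and more RNA per cell cannot be told apart.

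Scaling moved all of these values together. The median over all named genes was -0.12 as reported, 0.25 with spike-in scaling and -0.27 with median scaling. The share of genes that were higher among those 2-fold apart was 52.8% as reported, 76.5% with spike-in scaling and 40.8% with median scaling.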

How the data were processed

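The deposited scanner files hold intensity values from Agilent Feature Extraction, given as version 9.5.1.1 in the submitters' processing notes and as 10.7.1.1 per the file headers. The software had spatial and multiplicative detrending and surrogates for low spots turned on, per the file headers, and these act within 1 array. The authors' value table, in linear intensity, lists 52145 probes, with a normalization that no source states, and served as an alternative. Flags and spot classes were read as the file headers name them.

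From these, log2 intensity was scaled by each array's 75th percentile of non-control intensity (Python 3.11.15). A spot called an outlier on at least 1 array was dropped and spots of a probe averaged. A gene was measured when a probe was well above background on both arrays, and was represented by the brightest such probe. A gene above background on 1 array only was given as a bound against the higher of the dim probe and the lowest signal well above background there. Of 56603 probes, 32992 were named by accession, 10224 by symbol and 520 by synonym in RefSeq's GRCm38.p6 table, used for names only; the others were left out of counts over named genes. Background correction by normexp used limma 3.58.1 with an offset of 50. The scaling and the 2-fold rule were tested on simulated data for genes measured on both arrays. The simulated shifts were well over 2-fold and balanced between higher and lower, so differences near 2-fold were not tested. The bounds and normexp were not tested in this way. Both arrays lay on 1 slide. There was 1 array per group, so no p-value was computed, and the number of arrays limits the precision. Genes named besides the 9 are, per partner list, up to 6 with the largest 2-fold differences and up to 3 with the largest bounds; others were chosen after their values were seen, and some that the rule names are not reported here. The 9 genes and all lists were chosen with earlier results of these data known.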

Additional observations from a re-analysis of the deposited data

How the results depend on the processing

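The values were recomputed under 12 alternative settings, 1 of them added after seeing the data, which kept only probes under a RefSeq mRNA accession. None of Cd79b, Bank1, Prdm1 and Sdc1 changed sign. Each median below covers only the genes of its list that counted as measured on both arrays under that setting. As reported these were 6 of the 9 genes, and without a filter on dim probes every gene counts as measured. With normexp 3 of the 9 genes were at least 2-fold higher in place of 5, Cd79a had no bound, and the medians were 0.57 for the 9 genes, 0.57 for B cell partners and 0.60 for immunoglobulin genes. With spike-in scaling the medians were 1.29 for the 9 genes, 1.27 for B cell partners (1 lower in place of 2), 0.47 for plasma cell partners, 0.27 for the BAFF list (2 higher in place of 1) and 1.45 for immunoglobulin genes. Loess gave medians of 0.38 for plasma cell partners and 0.12 for the BAFF list, and 1 lower B cell partner. Median scaling, quantile normalization and the authors' table each put 1 immunoglobulin gene at least 2-fold lower in place of 0. The mean over probes gave medians of 1.28 for the 9 genes, 0.65 for B cell partners and 0.22 for the BAFF list, and the median over probes gave 1.28 for the 9 genes. The looser filter on dim probes gave medians of 0.72 for plasma cell partners, 0.25 for the BAFF list (3 higher) and 1.84 for immunoglobulin genes. Without a filter the medians were 1.18 for the 9 genes, 1.15 for B cell partners, 0.80 for the BAFF list (4 higher) and 1.42 for immunoglobulin genes. With RefSeq mRNA probes only, the median of the 9 genes was 1.28 and 2 genes of the BAFF list were higher. The cause of these shifts was not tested. No paired analysis was possible because each group has 1 array, and for the same reason no array could be left out. Cd79a, Bank1, Pax5, Tnfrsf17 and Jchain have dim readings on at least 1 array, which limits how well their differences are measured. The same holds for the RefSeq probe of Ms4a1, at 49.3 on the sham array, and the dimmest Sdc1 probe, at 37.2 on the 5/6Nx array. Jchain was dim on the sham array alone, at 7.89. The size of its bound there rests on the lowest signal called well above background, 12.8.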
